A study of Mus musculus with 18 samples.

Results

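The genes described here were 10 mouse genes of the endoplasmic reticulum (ER) folding machinery and the unfolded protein response, *Hspa5*, *Hsp90b1*, *Xbp1*, *Dnajb9*, *Sdf2l1*, *Calr*, *Pdia4*, *Pdia6*, *Herpud1* and *Edem1*. They were taken by gene name from a table of 56748 genes, of which 27701 had at least 1 count in any library, and each of the 10 names matched 1 gene. RNA was sequenced from RAW 264.7 cells, an immortalized mouse macrophage line, in 18 libraries that fell into 6 conditions with 3 libraries each, which the study's methods call biological replicates. Total counts per library ranged from 14423390 to 18851626.

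Control macrophages received no treatment. TBHQ macrophages received 5 µM tert-butylhydroquinone, a synthetic phenolic antioxidant used in food, and were collected after 4 h. LPS macrophages received 0.1 µg/mL lipopolysaccharide, a component of Gram-negative bacterial walls, for 12 h, and PIC macrophages received 20 µg/mL polyinosinic-polycytidylic acid, a synthetic double-stranded RNA, for 12 h. LPS + TBHQ and PIC + TBHQ macrophages were held in 5 µM TBHQ for 4 h before the same stimulus was given for 12 h. The cells treated with TBHQ alone were thus harvested 12 h earlier in the treatment scheme than the stimulated cells that had received TBHQ, and the harvest time of the control is unclear, since its description can be read as 12 h in medium alone. Time in culture and treatment therefore cannot be told apart in any comparison against control. The same holds where the effect of TBHQ alone is set beside that in stimulated cells. Whether LPS and PIC macrophages were held without TBHQ for a matching 4 h before their stimulus is not stated. The cells are a single line. The study dissolved TBHQ in DMSO, and no sequenced condition is described as solvent-only. TBHQ and its solvent therefore cannot be told apart.

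Proteins that enter the secretory pathway fold in the ER, where chaperones of the Hsp70 and Hsp90 families, lectin chaperones and disulfide isomerases act on them, and chains that fail to fold are returned to the cytosol and degraded. When unfolded chains accumulate, the sensors IRE1, ATF6 and PERK start the unfolded protein response, in which the transcription factors XBP1, ATF6 and ATF4 raise the transcription of chaperone and degradation genes. Macrophages secrete cytokines in quantity after activation, and Toll-like receptor signalling is known to engage the IRE1 and XBP1 branch in these cells.

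The libraries carried the RNA of macrophages. Each of the 8 macrophage markers exceeded 3 counts in its highest library, with *Lyz2* the most abundant at 3399 to 4647 FPKM (fragments scaled to gene length and to library size). The summed level of the 8 markers was 8403 to 10350 CPM (counts scaled to library size). Markers of 3 other cell types were at or near 0, with the 5 fibroblast markers at no more than 0.7585 CPM in sum, the 4 epithelial markers at no more than 0.0643 and the 3 T cell markers at no more than 0.124. *Col1a1*, *Col1a2* and *Col3a1*, all 4 epithelial markers and all 3 T cell markers were at or under 3 counts. Genes known to respond to the treatments were read as checks. *Ptgs2*, which encodes cyclooxygenase-2, had a mean of 17.0 FPKM in control, 43.6 in TBHQ, 326 in LPS, 962 in PIC, 202 in LPS + TBHQ and 441 in PIC + TBHQ. *Ifit1*, an interferon-induced gene, had 11.1, 8.27, 26.1, 59.8, 7.61 and 25.2 FPKM in the same order, and was lower than control in TBHQ (FDR 9.20e-05) and in LPS + TBHQ (FDR 7.56e-07) by edgeR. *Hmox1*, an NRF2 target that encodes heme oxygenase-1, had 194 FPKM in control, 829 in TBHQ, 979.6 in LPS, 1164 in PIC, 798 in LPS + TBHQ and 1030.3 in PIC + TBHQ. *Hmox1* was thus higher after each treatment. By edgeR it was lower in LPS + TBHQ than in LPS (−18.6%, FDR 1.97e-08) and in PIC + TBHQ than in PIC (−10.8%, FDR 2.90e-04).

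The 10 genes together held 0.935% ± 0.0105 (SD, n = 3) of the counts in control and 0.679% ± 0.00366 in TBHQ. The share was 0.9035% ± 0.0226 in LPS, 0.827% ± 0.00392 in PIC, 0.878% ± 0.00267 in LPS + TBHQ and 0.841% ± 0.01 in PIC + TBHQ. In RNA from whole cultures, fewer cells that express a gene cannot be told apart from less RNA of that gene per cell. All 10 genes passed the filter on low counts, and their lowest count in any library was 423, for *Dnajb9*. Levels below are FPKM as deposited, which allow genes to be compared per length. They carry a constant per library that differed by condition, such as 0.943 to 0.951 in control and 1.112 to 1.116 in PIC. Orders and overlaps of conditions in FPKM can therefore differ from those of counts over library totals. Differences are log2 fold changes by edgeR (quasi-likelihood F test), with p-values adjusted by the Benjamini-Hochberg method over the 13691 genes tested and called at a false discovery rate (FDR) below 0.05, and each is given ± the SE from the spread of the 3 libraries in each condition.

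**Figure D1:**
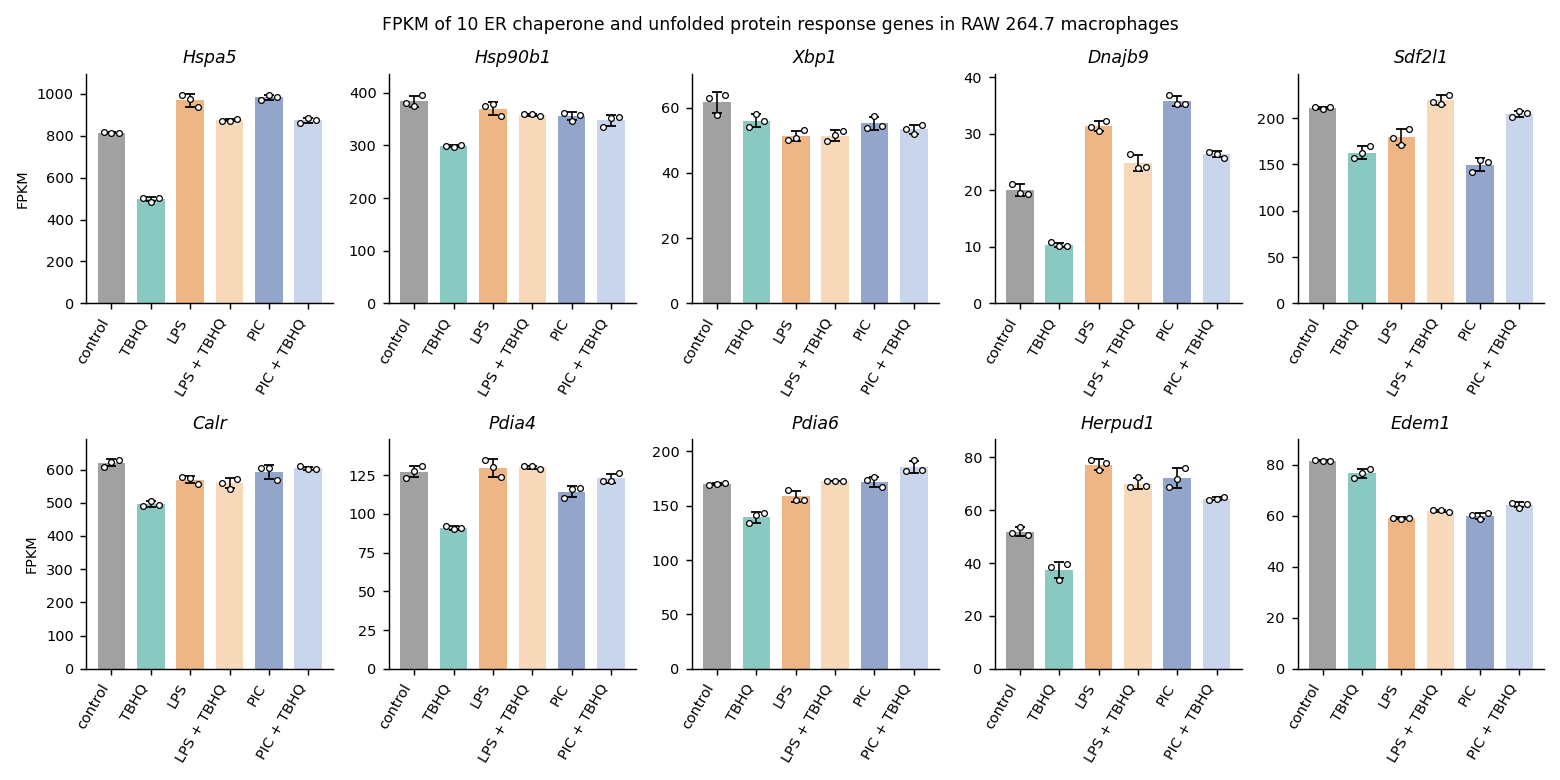
FPKM (vertical axes, linear, from 0) of the 10 genes in the 6 conditions. Bars are means, error bars are SD, and points are the 3 libraries of each condition. *Hspa5* averaged 498 FPKM in TBHQ and 815 in control, and *Dnajb9* 10.3 in TBHQ and 35.8 in PIC.

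TBHQ alone was set against control to show the state of the cells when the stimuli would have been added. All 10 genes were lower in TBHQ. Of all genes tested, 14.8% were called lower and 14.2% higher. The median log2 fold change of the 10 genes was −0.37, and that of all genes tested was −0.0001. None of the 10 genes was higher by edgeR, by DESeq2, or at an unadjusted p under 0.05 in either tool, each with a count of 0. *Dnajb9* and *Hspa5* had the largest changes among the 10. All TBHQ libraries lay below all control libraries for 9 of the 10 genes on the log2 CPM scale, the exception being *Xbp1*, beside 20.7% of all genes tested, with 20.2% wholly above. The calls of *Xbp1* and *Edem1* changed when single libraries were left out. For *Xbp1* the FDR was 0.0106 with all libraries, 0.0536 without control replicate 1, 0.0828 without control replicate 3 and 0.0685 without TBHQ replicate 1. For *Edem1* it was 0.019 with all libraries, 0.103 without TBHQ replicate 1 and 0.0548 with no filter on low counts.

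*Xbp1*, on chromosome 11, encodes the transcription factor whose mRNA is spliced by IRE1. Its level was 63.0, 57.8 and 63.9 FPKM in the control libraries, 54.1, 58.0 and 56.0 in TBHQ, 50.1, 50.7 and 53.0 in LPS, and 53.8, 57.5 and 54.2 in PIC. The highest library of TBHQ lay above the lowest of control, while the LPS libraries were all below control. The change was −0.14 ± 0.05 in TBHQ, −0.27 ± 0.05 in LPS (FDR 1.47e-06) and −0.18 ± 0.05 in PIC (FDR 5.02e-04). In LPS + TBHQ it was 49.8 to 53.0 FPKM and in PIC + TBHQ 51.8 to 54.7, and neither differed past the threshold from its stimulus without TBHQ (FDR 0.972 and 0.563). In order of mean level the conditions ran control, TBHQ, PIC, PIC + TBHQ, LPS + TBHQ and LPS, and every pair of neighbours in that order overlapped. Counts per gene do not separate the spliced from the unspliced mRNA, so splicing of *Xbp1* was not measured here.

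*Hspa5*, on chromosome 2, encodes BiP, the ER member of the Hsp70 family. It had the highest level of the 10 genes, with a mean of 835 FPKM over all libraries. The control libraries held 817, 814 and 813 FPKM and the TBHQ libraries 503, 486 and 504. No TBHQ library came near a control library, and *Hspa5* fell by 39.0% (log2 fold change −0.71 ± 0.02, FDR 1.36e-21). In LPS it was 995, 974 and 937 FPKM, and in PIC 968, 992 and 987. All of these exceeded control, by 0.24 ± 0.03 in LPS (FDR 7.58e-10) and 0.25 ± 0.01 in PIC (FDR 1.56e-10). With TBHQ before the stimulus the levels were 871, 870.1 and 879 FPKM for LPS and 862, 886 and 875 for PIC. They lay between control and the stimulus alone with no overlap on either side. The difference from the stimulus alone was −0.15 ± 0.03 for LPS (FDR 2.59e-05) and −0.16 ± 0.01 for PIC (FDR 9.62e-06). In order of mean level the conditions ran PIC, LPS, PIC + TBHQ, LPS + TBHQ, control and TBHQ, and LPS overlapped PIC, as LPS + TBHQ did PIC + TBHQ. With the total count as library size the changes against control lost their calls in PIC (0.04, FDR 0.229) and in LPS + TBHQ (0.03, FDR 0.394), and that in PIC + TBHQ lost its call and turned sign (−0.05, FDR 0.0745).

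*Dnajb9*, on chromosome 12, encodes ERdj4, a J-domain partner of BiP, and varied most among the 10 genes, with condition means that spanned 1.77 on the log2 CPM scale. It was 21.2, 19.4 and 19.4 FPKM in control, 10.8, 10.1 and 10.1 in TBHQ, 31.2, 30.5 and 32.2 in LPS, and 36.8, 35.3 and 35.1 in PIC. None of these 4 conditions overlapped another. The level in TBHQ was 1.94-fold lower than in control (−0.95 ± 0.05, FDR 1.45e-15), that in LPS 1.56-fold higher (0.64 ± 0.05, FDR 5.14e-13) and that in PIC 1.77-fold higher (0.82 ± 0.05, FDR 2.16e-16). PIC exceeded LPS by 0.18 ± 0.03 (FDR 0.00454). After TBHQ the stimulated cells held 26.5, 23.9 and 24.1 FPKM with LPS and 26.8, 26.5 and 25.8 with PIC. These were below every library of the stimulus alone and above every control library. The difference was −0.34 ± 0.05 for LPS (FDR 2.03e-06) and −0.43 ± 0.03 for PIC (FDR 1.05e-08). The order of means was that of *Hspa5*, and among neighbours PIC + TBHQ and LPS + TBHQ overlapped. Of the 50-base words of its transcripts, 5.5% also occur in another gene, mostly *Gm6568*, so a part of its reads could have been assigned elsewhere.

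*Sdf2l1*, on chromosome 16, encodes a partner of ERdj3 in the BiP cycle and moved in the opposite direction to *Dnajb9* under stimulation. It was 212, 210.3 and 212 FPKM in control, 157, 162 and 169.9 in TBHQ, 179, 171 and 188 in LPS, and 142, 154 and 153 in PIC. All 3 treated conditions lay below control, PIC lowest. The change against control was −0.38 ± 0.03 in TBHQ (FDR 1.77e-09), −0.24 ± 0.04 in LPS (FDR 3.10e-06) and −0.52 ± 0.04 in PIC (FDR 1.24e-13). When TBHQ came first it was 218, 215 and 225 FPKM with LPS and 201, 208 and 206 with PIC. Every one of these libraries was above every library of the matching stimulus, by 0.29 ± 0.04 for LPS (FDR 5.21e-07) and 0.46 ± 0.04 for PIC (FDR 1.37e-11). From the highest mean, LPS + TBHQ, the order ran through control, PIC + TBHQ, LPS and TBHQ to PIC, with no neighbours overlapping. Against control LPS + TBHQ and PIC + TBHQ missed the threshold (0.04 ± 0.02, FDR 0.387, and −0.05 ± 0.01, FDR 0.282).

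*Hsp90b1*, on chromosome 10, encodes GRP94, the ER member of the Hsp90 family, which folds Toll-like receptors and integrins. It ranged from 375 to 396 FPKM in control and from 298 to 301 in TBHQ. The TBHQ libraries were below all 15 others, and the change was −0.36 ± 0.02 (FDR 9.12e-12). It was 355 to 378 FPKM in LPS, 347 to 362 in PIC, 355 to 359 in LPS + TBHQ and 335 to 354 in PIC + TBHQ, and neighbours in the order of means overlapped from control down to PIC + TBHQ. The change in LPS was −0.06 ± 0.04 and missed the threshold (FDR 0.0881), and that in PIC was −0.13 ± 0.03 (FDR 4.37e-04). Adding TBHQ before the stimulus gave −0.05 ± 0.03 with LPS (FDR 0.267) and −0.02 ± 0.03 with PIC (FDR 0.63). Other genes hold 2.96% of its 50-base words.

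*Calr*, on chromosome 8, encodes calreticulin, the soluble lectin chaperone that holds newly made glycoproteins. Its level was 608 to 628 FPKM in control and 490.0 to 505 in TBHQ, which was the lowest condition and overlapped no other. From control the means fell through PIC + TBHQ, PIC, LPS and LPS + TBHQ to TBHQ, and all neighbours but the last pair overlapped. The change in TBHQ was −0.32 ± 0.02 (FDR 9.52e-11). In LPS, at 556 to 579 FPKM, it was −0.13 ± 0.02 (FDR 4.37e-04). In PIC, at 569 to 606 FPKM, it was −0.08 ± 0.03 (FDR 0.0195), a call that 4 of the libraries decided, since the FDR was 0.0506 without control replicate 2, 0.0612 without control replicate 3, 0.0507 without LPS replicate 2 and 0.343 without PIC replicate 3. The FDR was 0.0534 by DESeq2, 0.071 with RLE size factors, 0.106 over genes with a mean of at least 50 counts, 0.0832 with the compared conditions alone, and 0.0839 and 0.0884 by limma on log2(FPKM + 1) and log2(FPKM + 0.1). *Calr* was 542 to 572 FPKM in LPS + TBHQ and 601 to 609.6 in PIC + TBHQ. TBHQ before the stimulus left it at −0.03 ± 0.03 with LPS (FDR 0.505) and 0.04 ± 0.03 with PIC (FDR 0.37), both short of the threshold.

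*Pdia4*, on chromosome 6, and *Pdia6*, on chromosome 12, encode protein disulfide isomerases, which form and exchange disulfide bonds in folding chains. *Pdia4* was 123 to 131 FPKM in control, 89.9 to 92.0 in TBHQ, 123 to 135 in LPS and 110.1 to 117 in PIC. TBHQ was apart from all other conditions, and LPS overlapped control. The change was −0.49 ± 0.03 in TBHQ (FDR 4.60e-13), 0.02 ± 0.04 in LPS (FDR 0.724) and −0.17 ± 0.03 in PIC (FDR 9.14e-05), and PIC was below LPS by −0.19 ± 0.04 (FDR 9.21e-05). *Pdia6* was 169 to 171 FPKM in control, 134 to 143 in TBHQ, 156 to 164 in LPS and 167 to 176 in PIC. Its change was −0.29 ± 0.03 in TBHQ (FDR 1.07e-08), −0.11 ± 0.02 in LPS (FDR 0.00561) and −0.0006 in PIC (FDR 0.989). For *Pdia4* the means ran LPS + TBHQ, LPS, control, PIC + TBHQ, PIC and TBHQ, and neighbours among the first 4 overlapped, while for *Pdia6* they ran PIC + TBHQ, LPS + TBHQ, PIC, control, LPS and TBHQ, and PIC overlapped both LPS + TBHQ and control, which did not overlap each other. The LPS call of *Pdia6* had an FDR of 0.051 without LPS replicate 2 and 0.0561 without LPS replicate 3. In LPS + TBHQ *Pdia4* was 129 to 131 FPKM and every library of *Pdia6* was at 173, and in PIC + TBHQ they were 121 to 126 and 182 to 192. TBHQ before the stimulus raised *Pdia6* by 0.12 ± 0.02 with LPS (FDR 0.00464) and 0.12 ± 0.03 with PIC (FDR 0.00437), and *Pdia4* by 0.12 ± 0.03 with PIC (FDR 0.0127) but not past the threshold with LPS (0.01 ± 0.04, FDR 0.937). With PIC, the call of *Pdia6* was lost without PIC replicate 3 (FDR 0.0819) or PIC + TBHQ replicate 2 (FDR 0.0603), and that of *Pdia4* without PIC replicate 1 (FDR 0.18) or PIC + TBHQ replicate 3 (FDR 0.106).

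*Herpud1*, on chromosome 8, encodes a membrane protein of the degradation complex around the ubiquitin ligase HRD1. The control libraries held 51.4, 53.7 and 50.5 FPKM, those of TBHQ 38.7, 33.7 and 39.6, those of LPS 78.9, 75.1 and 77.8, and those of PIC 68.7, 72.0 and 76.0. TBHQ lay below control and both stimuli above it, with LPS and PIC overlapping. The change was −0.48 ± 0.08 in TBHQ (FDR 9.21e-10), 0.57 ± 0.03 in LPS (FDR 9.34e-13) and 0.46 ± 0.05 in PIC (FDR 9.58e-11). After TBHQ the levels were 68.8, 72.4 and 69.1 FPKM with LPS and 63.9, 64.0 and 65.0 with PIC, below each library of the matching stimulus. By mean the order was LPS, PIC, LPS + TBHQ, PIC + TBHQ, control and TBHQ, with neighbours among the first 3 overlapping. The difference was −0.14 ± 0.03 for LPS (FDR 0.0187) and −0.16 ± 0.04 for PIC (FDR 0.00778). The former was lost without LPS replicate 1 (FDR 0.0737), LPS replicate 3 (FDR 0.0513), LPS + TBHQ replicate 1 (FDR 0.079) or LPS + TBHQ replicate 3 (FDR 0.0723), and in limma on log2(FPKM + 1) (FDR 0.0578) and log2(FPKM + 0.1) (FDR 0.0597).

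*Edem1*, on chromosome 6, encodes a mannosidase-like protein that marks misfolded glycoproteins for degradation, and its pattern differed from that of *Herpud1*. It was 81.8, 81.5 and 81.3 FPKM in control, 74.6, 76.8 and 78.3 in TBHQ, 59.2, 58.7 and 59.2 in LPS, and 60.2, 58.8 and 61.2 in PIC. Control was the highest condition, and both stimuli were below TBHQ in every library. The change was −0.09 ± 0.02 in TBHQ, −0.47 in LPS with an SE of 0.0039 (FDR 1.70e-15) and −0.46 ± 0.02 in PIC (FDR 2.10e-15). The order of means was control, TBHQ, PIC + TBHQ, LPS + TBHQ, PIC and LPS, where the last pair overlapped. With TBHQ first it was 61.3 to 62.1 FPKM with LPS and 63.1 to 65.2 with PIC. The latter exceeded PIC alone by 0.11 ± 0.02 (FDR 0.00517, and 0.0749 without PIC replicate 2), while the former exceeded LPS alone by 0.06 with an SE of 0.0055 and missed the threshold (FDR 0.133).

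**Figure D2:**
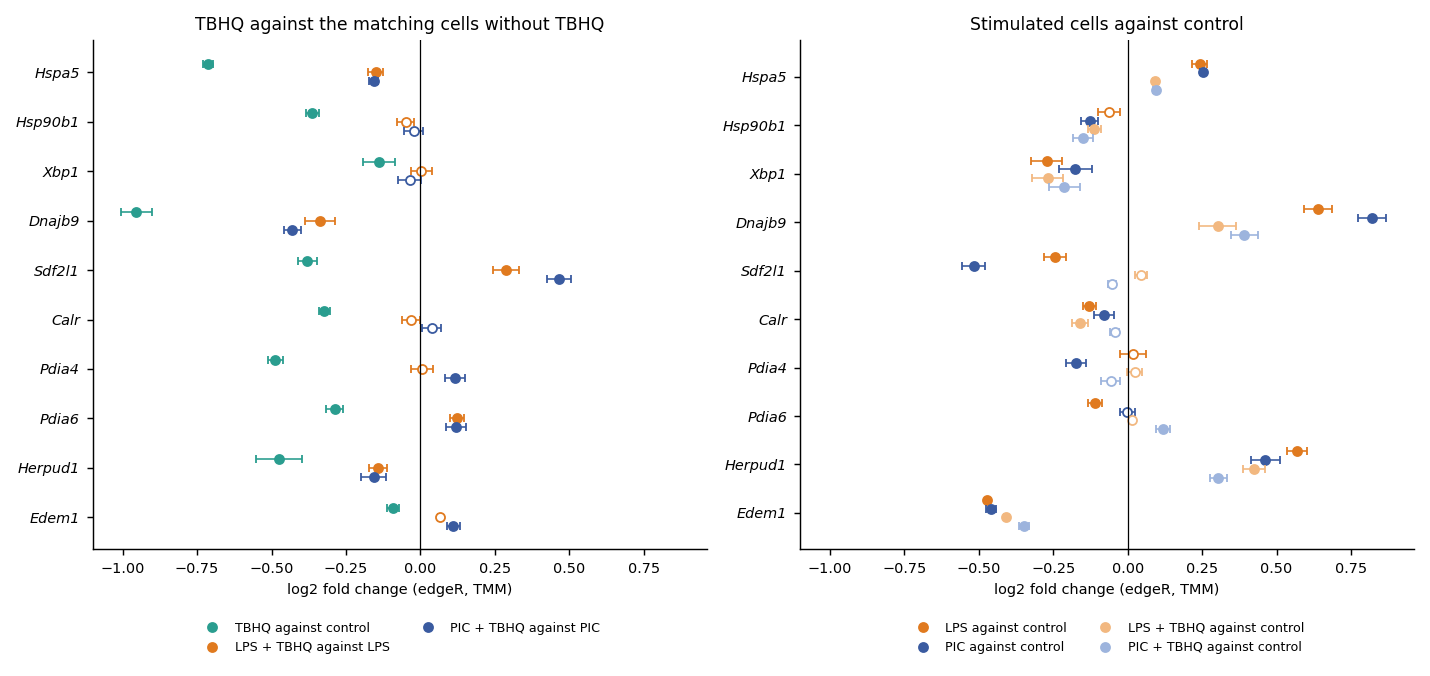
Log2 fold changes (horizontal axes) of the 10 genes, with error bars of 1 SE from the spread of libraries. Filled points passed an FDR of 0.05 and open points did not. Left, TBHQ against the matching cells without TBHQ, where *Sdf2l1* was −0.38 alone, 0.29 with LPS and 0.46 with PIC. Right, stimulated cells against control, where *Dnajb9* reached 0.82 in PIC.

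LPS and PIC, both without TBHQ, were each set against control. Since the harvest time of the control is unclear, stimulus and time in culture cannot be told apart in these comparisons. In LPS, 3 of the 10 genes were higher (*Hspa5*, *Dnajb9* and *Herpud1*) and 5 lower (*Xbp1*, *Sdf2l1*, *Calr*, *Pdia6* and *Edem1*), where 24% of all genes tested were higher and 24.1% lower. In PIC, the 3 higher were again *Hspa5*, *Dnajb9* and *Herpud1*, and 6 were lower (*Hsp90b1*, *Xbp1*, *Sdf2l1*, *Calr*, *Pdia4* and *Edem1*), where 28.6% of all genes tested were higher and 30.1% lower. The share higher was near that of all genes in both. The median of the 10 genes was −0.09 in LPS and −0.10 in PIC, and that of all genes tested was −0.0040 and −0.0146. These 2 comparisons, like the others against control, share the control libraries.

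In LPS + TBHQ against control, *Hspa5*, *Dnajb9* and *Herpud1* were higher and 4 of the 10 lower (*Hsp90b1*, *Xbp1*, *Calr* and *Edem1*), beside 21.2% and 22.5% of all genes tested. The median was 0.02 over the 10 genes and −0.0075 over all genes. In PIC + TBHQ against control, 4 were higher (*Hspa5*, *Dnajb9*, *Pdia6* and *Herpud1*) and 3 lower (*Hsp90b1*, *Xbp1* and *Edem1*), beside 26.4% and 26% of all genes, with medians of −0.05 and −0.0012. *Dnajb9* was 0.30 ± 0.06 above control in LPS + TBHQ and 0.39 ± 0.04 in PIC + TBHQ, *Herpud1* 0.42 ± 0.04 and 0.30 ± 0.03, and *Hspa5* 0.09 ± 0.01 and 0.10 ± 0.01.

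The direction of small changes in PIC libraries depended on the scaling. TMM factors set the library sizes in the edgeR values, except where another scaling is named. With the total count as library size, the median log2 fold change of all genes tested moved to −0.23 in PIC against control, −0.15 in PIC + TBHQ against control and −0.14 in PIC against LPS, so changes are read relative to the bulk of genes. The share of calls that were higher then went from 48.7% to 26.4%, from 50.4% to 30% and from 53.7% to 18.4%. It went from 49.8% to 35% in LPS against control, from 48.4% to 36.1% in LPS + TBHQ against control, from 48.9% to 59.5% in LPS + TBHQ against LPS, from 50.6% to 70.3% in PIC + TBHQ against PIC and from 58.5% to 25.6% in PIC + TBHQ against LPS + TBHQ. With that scaling *Hspa5* turned to −0.05 and *Pdia6* to −0.03 in PIC + TBHQ against control, neither past the threshold. Outside the comparisons of PIC with LPS, calls were gained for *Hsp90b1* in LPS against control (−0.15), *Pdia6* in PIC against control (−0.22), *Calr* (−0.19), *Pdia4* (−0.21) and *Sdf2l1* (−0.20) in PIC + TBHQ against control, *Edem1* in LPS + TBHQ against LPS (0.09) and *Calr* in PIC + TBHQ against PIC (0.11). In TBHQ against control the 10 genes were lower under every scaling tried.

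LPS + TBHQ against LPS and PIC + TBHQ against PIC compared stimulated cells with and without TBHQ, all harvested after the same 12 h of stimulus. A matching 4 h hold before the stimulus is not stated for the cells without TBHQ. Thus TBHQ and a longer time in culture cannot be told apart here. With LPS, *Sdf2l1* and *Pdia6* were higher and *Hspa5*, *Dnajb9* and *Herpud1* lower, which is 2 and 3 of the 10 genes beside 11.7% and 12.2% of all genes tested. With PIC, *Sdf2l1*, *Pdia4*, *Pdia6* and *Edem1* were higher and *Hspa5*, *Dnajb9* and *Herpud1* lower, which is 4 and 3 of the 10 beside 15.8% and 15.5%. The median of the 10 genes was −0.01 with LPS and 0.01 with PIC, and that of all genes 0.0023 and 0.0089. With the total count as library size, *Herpud1* lost its call in both (FDR 0.055 with LPS and 0.139 with PIC).

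Whether TBHQ acted differently with PIC than with LPS was tested as an interaction. None of the 10 genes passed, with 0 higher and 0 lower by edgeR and by DESeq2, beside 0.825% and 1.01% of all genes tested. At an unadjusted p under 0.05, edgeR gave 2 higher (*Sdf2l1* and *Pdia4*) and 0 lower, and DESeq2 1 and 0. How many of all genes passed that unadjusted limit was not computed, so these counts cannot be set beside a share. The difference was 0.18 ± 0.06 for *Sdf2l1* (FDR 0.108, and 0.0224 with the total count as library size) and 0.11 ± 0.05 for *Pdia4* (FDR 0.313). Scaled by the total count, 1.72% of all genes were called higher in the interaction and 0.541% lower. The share of calls that were higher was 45% among all genes, 30% by DESeq2, and 76.1% with the total count as library size.

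The effect of TBHQ with a stimulus was also set against its effect alone, in 2 contrasts chosen after the data were seen. A positive difference here means a log2 fold change that was less negative, or more positive, with the stimulus. All 10 genes had a positive difference in both contrasts, and 9 of them passed the threshold in each by edgeR, *Xbp1* (0.14 and 0.10) missing it in both (FDR 0.0977 with LPS and 0.222 with PIC). Of all genes tested, the contrast with LPS had 9.14% higher and 9.33% lower, and that with PIC 13.3% and 12.5%. The median difference of the 10 genes was 0.37 with LPS and 0.38 with PIC, beside 0.0071 and 0.0157 for all genes. None of the 10 was lower at an unadjusted p under 0.05 in edgeR or DESeq2, nor at the adjusted threshold by DESeq2, each count being 0. The call of *Xbp1* with LPS was gained without control replicate 2 (FDR 0.031) and with the total count as library size (FDR 0.0369), and with PIC it was gained under the latter (FDR 0.0226). With that scaling the share of calls that were higher went from 49.5% to 58.9% in the contrast with LPS and from 51.4% to 70% in that with PIC. Both contrasts compare cells harvested at different times, and stimulus and time cannot be told apart in them.

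PIC against LPS asked how the stimuli differed. *Dnajb9* and *Pdia6* were higher in PIC and *Sdf2l1* and *Pdia4* lower, which is 2 and 2 of the 10 genes beside 14.9% and 12.8% of all genes tested, with medians of 0.01 and −0.0087. *Sdf2l1* differed by −0.27 ± 0.05 (FDR 2.00e-06) and *Pdia6* by 0.11 ± 0.03 (FDR 0.0112, and 0.0557 without PIC replicate 2). With the total count as library size 0 were higher and 7 lower, beside 7.19% and 31.9% of all genes under that scaling, *Hspa5* turning from 0.01 to −0.12, *Edem1* from 0.01 to −0.12, *Calr* from 0.05 to −0.08 and *Pdia6* from 0.11 to −0.02, and *Dnajb9* lost its call (0.05, FDR 0.427). Leaving out PIC replicate 3 added *Calr* (0.08, FDR 0.0499) and *Herpud1* (−0.14, FDR 0.0334), and leaving out LPS replicate 3 added *Hsp90b1* (−0.09, FDR 0.033).

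In PIC + TBHQ against LPS + TBHQ, *Calr* (0.12 ± 0.02, FDR 0.00332) and *Pdia6* (0.11 ± 0.02, FDR 0.0171) were higher and 0 of the 10 lower, beside 11.9% and 8.39% of all genes tested, with medians of 0.03 and 0.0061. At an unadjusted p under 0.05, 3 were lower by edgeR and 3 by DESeq2, and DESeq2 called 1 at its adjusted threshold, *Herpud1* (FDR 0.0451, against 0.0598 in edgeR). The share of all genes at an unadjusted p was not computed, so the unadjusted counts have no background here. *Pdia6* lost its call without LPS + TBHQ replicate 1 (FDR 0.0565), LPS + TBHQ replicate 2 (FDR 0.0537) or PIC + TBHQ replicate 2 (FDR 0.154), and with no filter on low counts (FDR 0.0746). With the total count as library size *Calr* (0.03, FDR 0.465) and *Pdia6* (0.02, FDR 0.705) lost their calls, and *Hspa5* turned from 0.0043 to −0.08 (FDR 0.0165). Leaving out any of 6 libraries brought in *Herpud1*, with an FDR of 0.0288 without PIC replicate 3, 0.0343 without TBHQ replicate 2, 0.0361 without PIC replicate 1, 0.037 without LPS replicate 2, 0.0409 without LPS replicate 3 and 0.0429 without PIC replicate 2. *Sdf2l1* came in without LPS replicate 2 (FDR 0.0389), LPS replicate 3 (FDR 0.0396), PIC replicate 1 (FDR 0.0418), PIC replicate 2 (FDR 0.0483) or PIC replicate 3 (FDR 0.0439).

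Lists of 94 further genes of the pathway in 8 roles gave 93 that were tested, the exception being *Derl3*. In TBHQ against control, 12 of the 93 were higher and 32 lower, with a median of −0.05, beside 14.2% and 14.8% of all genes tested, so the share higher was near that of all genes. Lower and higher were 1 and 2 of 11 sensors and their processing factors, 4 and 2 of 10 genes of the ATF4 and CHOP branch, 5 lower and 7 not called of 12 partners of the ER Hsp70 and Hsp90, then 5 and 1 of 12 disulfide enzymes, 1 and 2 of 7 glycoprotein folding genes, 8 and 2 of 17 degradation genes, 7 and 1 of 15 translocation genes and 1 and 2 of 9 ER export genes. *Ddit3*, which encodes CHOP, fell from 71.7 to 29.3 FPKM (−1.29 ± 0.03, FDR 2.04e-21), and *Nupr1*, a stress-induced nuclear protein gene, from 9.65 to 5.16 (−0.91 ± 0.06). *Creld2* (−0.47 ± 0.05) and *Dnajc3* (−0.35 ± 0.05), *Ero1a* (−0.46 ± 0.05) and *P4hb* (−0.30 ± 0.02), *Sel1l* (−0.36 ± 0.05) and *Selenok* (−0.35 ± 0.03), *Sec61g* (−0.55 ± 0.11) and *Spcs1* (−0.28 ± 0.03), and *Mcfd2* (−0.30 ± 0.06) and *Ern1* (−0.26 ± 0.06), which encodes IRE1, were lower as well. *Sec24d*, a coat protein gene of ER export vesicles, rose by 0.46 ± 0.03 and *Nfya* by 0.22 ± 0.02. *Mogs* (0.14 ± 0.05, FDR 0.0237) and *Sar1b* (−0.17 ± 0.05, FDR 0.0174) passed too, but the call of *Mogs* was lost without control replicate 1 (FDR 0.111) or TBHQ replicate 3 (FDR 0.207) and by limma on log2(FPKM + 1) (FDR 0.0666) and log2(FPKM + 0.1) (FDR 0.0662), and that of *Sar1b* without control replicate 2 (FDR 0.0651), control replicate 3 (FDR 0.0631) or TBHQ replicate 1 (FDR 0.105).

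In LPS against control, 35 of the 93 were higher and 25 lower, with a median of 0.02, beside 24% and 24.1% of all genes tested. The split was 21 higher and 39 lower with the total count as library size, beside 17.9% and 33.3% of all genes under that scaling. The ATF4 and CHOP branch had 9 of 10 higher and 1 lower, and a median of 0.79. *Sesn2*, which encodes a stress-induced regulator of growth signalling, rose from 9.30 to 26.7 FPKM (1.51 ± 0.05, FDR 3.44e-23) and *Chac1*, a glutathione-degrading enzyme gene, from 8.65 to 22.7 (1.38 ± 0.05). Of the degradation genes 10 of 17 were higher and 1 lower, with *Syvn1*, which encodes HRD1, at 0.34 ± 0.05 and *Edem2* at 0.24 ± 0.05. Partners of the ER Hsp70 and Hsp90 had 2 of 12 higher and 5 lower, with *Cnpy3* at −0.36 ± 0.05 and *Dnajc1* at 0.36 ± 0.07, and disulfide enzymes 4 of 12 higher and 5 lower, with *Ero1a*, the oxidase that recharges disulfide isomerases, at 0.97 ± 0.04 and *Erp29* at −0.73 ± 0.03. Sensors had 3 of 11 higher and 3 lower, with *Ern1* at 0.64 ± 0.07 and *Creb3* at 0.27 ± 0.06. Glycoprotein folding genes had 1 of 7 higher and 4 lower, with *Mogs* at −0.28 ± 0.07 and *Uggt1* at −0.27 ± 0.04. Translocation genes had 3 of 15 higher and 4 lower, with *Srpr* at 0.40 ± 0.03 and *Ssr1* at −0.18 ± 0.03, and export genes 3 of 9 higher and 2 lower, with *Sec23b* at 0.27 ± 0.03 and *Sec24d* at 0.24 ± 0.03.

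In PIC against control, 42 of the 93 were higher and 24 lower, with a median of 0.06, beside 28.6% and 30.1% of all genes tested. Scaling by the total count gave 18 higher and 52 lower, beside 17.4% and 48.5% of all genes. The ATF4 and CHOP branch again had 9 of 10 higher, 1 not called, and a median of 0.99, with *Sesn2* at 1.82 ± 0.04 (FDR 3.50e-26) and *Chac1* at 1.33 ± 0.04. *Ern1* (0.80 ± 0.05) and *Nfyb* (−0.44 ± 0.09) led the sensors, of which 3 of 11 were higher and 5 lower. *Ero1a* (1.17 ± 0.01) and *Erp29* (−0.89 ± 0.05) led the disulfide enzymes, with 5 of 12 higher and 3 lower, and *Cnpy3* (−0.66 ± 0.04) and *Dnajc1* (0.39 ± 0.03) the Hsp70 and Hsp90 partners, with 2 of 12 higher and 6 lower. Degradation genes had 11 of 17 higher and 2 lower, with *Nploc4* at 0.41 ± 0.04 and *Ufd1* at 0.32 ± 0.05, the latter without a call when the total count was the library size (FDR 0.0875). Translocation genes had 8 of 15 higher and 2 lower, with *Srpr* at 0.45 ± 0.03 and *Sec61g* at 0.42 ± 0.12. Export genes had 3 of 9 higher and 1 lower, with *Sec23b* at 0.44 ± 0.03 and *Surf4* at 0.40 ± 0.02, and glycoprotein folding genes 1 of 7 higher and 5 lower, with *Mogs* at −0.47 ± 0.03 and *Uggt1* at −0.26 ± 0.04.

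TBHQ before the stimulus moved 22 of the 93 higher and 12 lower with LPS (median 0.02), and 26 higher and 13 lower with PIC (median 0.03), beside 11.7% and 12.2% of all genes tested with LPS and 15.8% and 15.5% with PIC. Scaled by the total count, the splits were 31 and 9 with LPS, beside 15.1% and 10.2% of all genes, and 41 and 7 with PIC, beside 24.8% and 10.5%. Lower genes were most frequent in the ATF4 and CHOP branch, with 6 of 10 lower and 1 higher with LPS and 5 and 1 with PIC. *Nupr1* was −0.71 ± 0.05 with LPS and −0.75 ± 0.07 with PIC, *Sesn2* −0.50 ± 0.06 with LPS, and *Ppp1r15a*, which encodes GADD34, −0.57 ± 0.03 with PIC. *Ero1a* fell from 64.1 to 38.2 FPKM with LPS (−0.75 ± 0.06, FDR 7.31e-16) and from 74.0 to 42.8 with PIC (−0.78 ± 0.05, FDR 2.19e-16), while *Txndc5*, a disulfide isomerase gene, rose by 0.42 ± 0.04 and 0.38 ± 0.05. Of the partners of the ER Hsp70 and Hsp90, 4 of 12 were higher with LPS and 5 with PIC, and the others were not called. *Hyou1*, which encodes a nucleotide exchange factor of BiP, was 0.23 ± 0.01 and 0.17 ± 0.03, *Manf* 0.17 ± 0.01 with LPS and *Dnajc3* 0.22 ± 0.03 with PIC. *Lman1* (0.23 ± 0.03 and 0.22 ± 0.04), *Derl1* (0.20 ± 0.03 and 0.26 ± 0.03), *Ssr1* (0.23 ± 0.03 and 0.21 ± 0.02) and *Sec24d* (0.24 ± 0.03 and 0.35 ± 0.03) were higher with both stimuli. *Uggt1* (0.21 ± 0.03) and *Sar1b* (−0.22 ± 0.03) passed with LPS, and *Mogs* (0.27 ± 0.03) and *Edem2* (0.27 ± 0.06) with PIC. *Sec61g* was −0.31 ± 0.13 with PIC. Other named calls were less firm. With LPS, *Edem2* (0.17 ± 0.06) lost its call without LPS replicate 2 (FDR 0.0663) or LPS + TBHQ replicate 3 (FDR 0.0566), *Ern1* (−0.20 ± 0.07) without LPS replicate 1 (FDR 0.0546), and *Sec61g* (−0.25 ± 0.08) without LPS replicate 2 (FDR 0.134) or LPS + TBHQ replicate 3 (FDR 0.125) and in DESeq2 (FDR 0.0767) and limma on log2(FPKM + 1) (FDR 0.0928) and log2(FPKM + 0.1) (FDR 0.0932). With PIC, *Eif2ak3* (0.25 ± 0.08) lost its call without PIC replicate 1 (FDR 0.112), PIC replicate 2 (FDR 0.0769) or PIC + TBHQ replicate 3 (FDR 0.0703), *Kdelr1* (0.18 ± 0.05) without PIC replicate 1 (FDR 0.122), PIC replicate 3 (FDR 0.0592) or PIC + TBHQ replicate 2 (FDR 0.0583), and *Nfyc* (−0.18 ± 0.05) without PIC replicate 3 (FDR 0.0697) or PIC + TBHQ replicate 2 (FDR 0.0942), with the total count as library size (FDR 0.153) and with no filter on low counts (FDR 0.061).

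For the remaining comparisons the 93 genes are given by count. LPS + TBHQ against control had 43 higher and 17 lower, beside 21.2% and 22.5% of all genes, and PIC + TBHQ against control 47 and 17, beside 26.4% and 26%. Under the total count as library size these were 33 and 27, beside 16.7% and 29.5% of all genes, and 29 and 39, beside 17.3% and 40.3%. In both comparisons the ATF4 and CHOP branch had 1 of 10 lower, with 9 and 8 higher. PIC against LPS had 28 higher and 9 lower, beside 14.9% and 12.8% of all genes, and 6 and 38 with the total count as library size, beside 7.19% and 31.9%. PIC + TBHQ against LPS + TBHQ had 17 and 4, beside 11.9% and 8.39%, and 7 and 20 with that scaling, beside 6.5% and 18.9%. In the interaction 1 of the 93 was called by edgeR (*Ddit3*) and 92 were not, near the shares of all genes (0.825% higher and 1.01% lower). DESeq2 called 2 more, both lower, and edgeR called 1 lower without LPS replicate 2 or PIC replicate 2.

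The 10 genes did not share a single pattern. Each gene's log2 CPM over the 18 libraries was set against the mean of the z-scored log2 CPM of the other 9. Pearson r was 0.891 for *Hsp90b1*, 0.887 for *Calr*, 0.875 for *Pdia4*, 0.786 for *Pdia6*, 0.776 for *Hspa5*, 0.618 for *Dnajb9*, 0.55 for *Herpud1*, 0.432 for *Sdf2l1*, −0.058 for *Xbp1* and −0.345 for *Edem1*. The 18 libraries are 6 conditions of 3, so these values describe the conditions and not 18 independent points. Of 10451 genes with a mean of at least 50 counts, the 8 outside the 10 whose levels were most like the mean of all 10 were *Tcn2* (r = 0.91), *Mnt* (0.909), *Aldoc* (0.906), *Pip4p1* (0.904), *Wdr7* (0.897), *Ss18l2* (0.892), *AU022793* (0.892) and *Slc38a6* (0.89). None of the 8 is in the pathway lists.

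Promoters were searched because ER stress response elements are the sequences through which ATF6 and XBP1 act on chaperone genes. All 10 genes matched a promoter in RefSeq (GRCm38.p6), taken from 250 bases before to 50 after the start of the gene, and both strands were read. The ER stress response element, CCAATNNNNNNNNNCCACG, was found in 4 of the 10 (*Hspa5*, *Hsp90b1* with 2 sites, *Calr* and *Pdia6*), in 6 of 79 pathway genes with a promoter in the table and in 0.119% of all 32851 promoters. ER stress response element II, ATTGGNCCACG, was found in *Herpud1* and in 0.0365% of all promoters, with 1 of the 79. The unfolded protein response element core TGACGTGG (6 of the 79 pathway genes and 0.676% of all promoters) and the interferon-stimulated response element core GAAANNGAAA (3 of the 79 and 3.44%) were in none of the 10. The antioxidant response element TGACNNNGC was in *Sdf2l1*, *Calr* and *Herpud1*, in 19 of the 79 and in 12.4% of all promoters. A match describes the letters only. The 250 bases before the start of the gene are shown for the 5 genes with either ER stress response element, 5′ to 3′ on the strand of the gene, with the fixed letters of the element in capitals, and an element on the other strand reads as its reverse complement. They lie at chr2:34771840-34772089 (plus strand) for *Hspa5*, chr10:86705445-86705694 (minus) for *Hsp90b1*, chr8:84846932-84847181 (minus) for *Calr*, chr12:17266339-17266588 (plus) for *Pdia6* and chr8:94386179-94386428 (plus) for *Herpud1*.
Hspa5: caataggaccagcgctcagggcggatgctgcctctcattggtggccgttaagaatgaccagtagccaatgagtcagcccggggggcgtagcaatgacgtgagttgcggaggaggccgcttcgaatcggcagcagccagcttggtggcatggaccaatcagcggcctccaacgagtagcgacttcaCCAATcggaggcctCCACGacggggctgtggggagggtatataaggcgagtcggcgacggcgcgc
Hsp90b1: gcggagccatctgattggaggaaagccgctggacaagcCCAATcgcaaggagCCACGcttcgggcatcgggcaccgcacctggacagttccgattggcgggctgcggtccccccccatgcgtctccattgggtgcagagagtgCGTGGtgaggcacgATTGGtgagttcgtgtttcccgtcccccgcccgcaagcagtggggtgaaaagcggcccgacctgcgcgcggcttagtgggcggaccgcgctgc
Calr: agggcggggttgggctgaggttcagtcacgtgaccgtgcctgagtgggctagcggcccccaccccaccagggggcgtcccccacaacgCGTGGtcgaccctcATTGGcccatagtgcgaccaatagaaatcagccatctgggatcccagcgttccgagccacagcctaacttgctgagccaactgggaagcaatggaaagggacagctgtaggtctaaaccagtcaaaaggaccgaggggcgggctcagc
Pdia6: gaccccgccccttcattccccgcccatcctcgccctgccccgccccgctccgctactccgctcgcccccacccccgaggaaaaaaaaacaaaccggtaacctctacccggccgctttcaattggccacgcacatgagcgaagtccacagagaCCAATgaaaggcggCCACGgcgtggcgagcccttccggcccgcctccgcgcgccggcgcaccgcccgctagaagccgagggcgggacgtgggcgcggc
Herpud1: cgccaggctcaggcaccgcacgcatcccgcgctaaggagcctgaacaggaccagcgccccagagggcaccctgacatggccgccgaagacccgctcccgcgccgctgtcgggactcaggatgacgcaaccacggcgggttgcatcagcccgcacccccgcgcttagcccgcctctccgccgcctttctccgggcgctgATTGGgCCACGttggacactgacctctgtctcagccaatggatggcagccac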

How the data were processed

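The authors deposited counts per gene and FPKM values for 18 libraries. Per the labels, poly(A) RNA libraries were sequenced, and the submitters' processing notes name HISAT2 2.0.5, StringTie 1.3.3b and featureCounts 1.5.0-p3. Whether counting used strand is not given in the sources used here. The FPKM deposited equal the counts scaled by gene length and by the library's total, up to 1 constant per library (0.943 to 1.12).

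Counts were read with Python 3.11.15 and tested in R 4.3.3 with edgeR 4.0.16 (filterByExpr, TMM, glmQLFit and glmQLFTest) in 1 fit over the 18 libraries with a coefficient per condition. DESeq2 1.42.0, limma 3.58.1 on log2(FPKM + 1) and log2(FPKM + 0.1), other scalings, filters, thresholds and sets of libraries were alternatives. Log2 CPM (counts scaled to library size) used a prior count of 2. The count tests were tested on simulated data.

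The members and lists were chosen with earlier results of these data known. Named were all 10 members, and per list and comparison the 2 genes with the largest |log2FC| among those called (FDR under 0.05) that averaged 50 counts or more and had no overlap of libraries, given by name for 5 comparisons and by count for the others. *Ptgs2*, *Ifit1* and *Hmox1* were treatment checks. Gene records with the same name were taken as the record with more counts (*Ddit3*). Markers of 1 further cell type are not reported here.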

Additional observations from a re-analysis of the deposited data

Results flagged for a closer look

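The log2 fold change with TBHQ differed between stimulated and unstimulated cells for 9 of the 10 genes with each stimulus, by edgeR's test of the difference itself with p-values adjusted by the Benjamini-Hochberg method, in 2 contrasts chosen after seeing the data. Of all genes tested, 9.14% had a more positive and 9.33% a more negative change with LPS than without a stimulus, and 13.3% and 12.5% with PIC. TBHQ alone gave −0.71 for *Hspa5*, −0.36 for *Hsp90b1*, −0.95 for *Dnajb9*, −0.38 for *Sdf2l1*, −0.32 for *Calr*, −0.49 for *Pdia4*, −0.29 for *Pdia6*, −0.48 for *Herpud1* and −0.09 for *Edem1*. With LPS the change was −0.15 for *Hspa5*, −0.05 for *Hsp90b1*, −0.34 for *Dnajb9*, 0.29 for *Sdf2l1*, −0.03 for *Calr*, 0.01 for *Pdia4*, 0.12 for *Pdia6*, −0.14 for *Herpud1* and 0.06 for *Edem1*, and with PIC −0.16 for *Hspa5*, −0.02 for *Hsp90b1*, −0.43 for *Dnajb9*, 0.46 for *Sdf2l1*, 0.04 for *Calr*, 0.12 for *Pdia4*, 0.12 for *Pdia6*, −0.16 for *Herpud1* and 0.11 for *Edem1*. The values with a stimulus were thus less negative, or positive. The change with LPS minus that without a stimulus was 0.5633 for *Hspa5*, 0.3141 for *Hsp90b1*, 0.6164 for *Dnajb9*, 0.6677 for *Sdf2l1*, 0.2915 for *Calr*, 0.4935 for *Pdia4*, 0.4108 for *Pdia6*, 0.3332 for *Herpud1* and 0.1566 for *Edem1*. For PIC the same subtraction gave 0.5564 for *Hspa5*, 0.3412 for *Hsp90b1*, 0.5236 for *Dnajb9*, 0.8445 for *Sdf2l1*, 0.3604 for *Calr*, 0.6037 for *Pdia4*, 0.4078 for *Pdia6*, 0.3185 for *Herpud1* and 0.2032 for *Edem1*. Both contrasts use the same control and TBHQ libraries. TBHQ alone was read 4 h after it was given and the stimulated cells after a further 12 h, so stimulus and time cannot be told apart.

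For *Ddit3*, the 1 gene called among the 93 further pathway genes in the interaction, the change with TBHQ was less negative with PIC than with LPS. Of all genes tested, 0.825% were called higher in the interaction and 1.01% lower, so 1 of 93 is near that share. Its change was −0.37 ± 0.06 with LPS (edgeR, adjusted p 2.40e-08) and −0.08 ± 0.04 with PIC, which missed the threshold (adjusted p 0.172), and the latter minus the former was 0.2851 (adjusted p 0.00702).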

How the results depend on the processing

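For the 10 genes in the 10 planned comparisons, values with 1 library left out kept direction and side of the threshold in 1733 of 1800, with 23 losing a call, 14 gaining one and 30 uncalled values changing sign. Other tools, filters, scalings by RLE and sets of libraries kept 671 of 700, with 10 lost, 7 gained and 12 uncalled changing sign. The total count as library size kept 59 of 100, with 7 lost, 14 gained, 7 changing sign with a call under at least 1 of the scalings and 13 changing sign without a call under either. Each condition had 3 libraries, and *Dnajb9* had the fewest counts of the 10 genes (423 to 1517 a library). What sets the precision was not tested. Replicate numbers did not pair the libraries: over 45 pairs with the same number the correlation of deviations from the condition means was −0.0444 to 0.0646, and 0 pairs exceeded 0.1. With the replicate number as a block, all 100 of those values kept their side of the threshold, 10 genes were lower in TBHQ against control, and of all genes 1980 were higher and 2056 lower there. Pathway genes were read under the block only where they were among the 2 with the largest changes per list and comparison. Of those calls the block ended 1, that of *Atf6* in PIC + TBHQ against LPS + TBHQ (FDR 0.0506).

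With the study's threshold (FDR below 0.01 and |log2FC| above 2), 0 of the 10 genes passed in edgeR in either direction in any comparison and 0 of the 93 further pathway genes in the 10 comparisons they were counted in, since the limit on fold removes smaller changes. All genes higher and lower then numbered 11 and 15 in TBHQ against control, 184 and 40 in LPS against control, 370 and 119 in PIC against control, 115 and 17 in LPS + TBHQ against control, 241 and 54 in PIC + TBHQ against control, 5 and 48 in LPS + TBHQ against LPS, 8 and 33 in PIC + TBHQ against PIC, 40 and 2 in PIC against LPS, 34 and 0 in PIC + TBHQ against LPS + TBHQ, 0 and 0 in the interaction, 16 and 24 in the contrast of TBHQ with LPS against TBHQ alone and 18 and 31 in the same contrast with PIC. With a limit of |log2FC| above 1 instead, 0 of the 10 genes passed in any comparison, and of the pathway genes those higher and lower numbered 0 and 1 in TBHQ against control, 3 and 0 in LPS against control, 6 and 0 in PIC against control, 2 and 0 in LPS + TBHQ against control, 3 and 0 in PIC + TBHQ against control, 0 and 0 in LPS + TBHQ against LPS, 0 and 0 in PIC + TBHQ against PIC, 0 and 0 in PIC against LPS, 0 and 0 in PIC + TBHQ against LPS + TBHQ and 0 and 0 in the interaction. All genes higher and lower numbered 106 and 167 in TBHQ against control, 676 and 346 in LPS against control, 1047 and 759 in PIC against control, 457 and 264 in LPS + TBHQ against control, 725 and 543 in PIC + TBHQ against control, 45 and 209 in LPS + TBHQ against LPS, 101 and 225 in PIC + TBHQ against PIC, 190 and 62 in PIC against LPS, 141 and 39 in PIC + TBHQ against LPS + TBHQ, 14 and 5 in the interaction, 105 and 141 in the contrast of TBHQ with LPS against TBHQ alone and 187 and 206 in the same contrast with PIC. The counts in edgeR and DESeq2 without a limit on fold, and at an unadjusted p under 0.05, are given above for each count of 0 of the 10 genes.

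Under the total count as library size, the median log2 fold change of all genes was −0.232 in PIC against control, and its source was not tested. With that scaling the 10 genes numbered, higher and lower, 2 and 6 in PIC + TBHQ against control, 0 and 7 in PIC against LPS and 0 and 5 in PIC + TBHQ against LPS + TBHQ, and 1 was higher in the interaction (*Sdf2l1*). The pathway genes numbered 21 and 39 in LPS against control, 18 and 52 in PIC against control, 33 and 27 in LPS + TBHQ against control, 29 and 39 in PIC + TBHQ against control, 41 and 7 in PIC + TBHQ against PIC, 6 and 38 in PIC against LPS and 7 and 20 in PIC + TBHQ against LPS + TBHQ, and all genes 2379 and 6635 in PIC against control, 2364 and 5515 in PIC + TBHQ against control, 3398 and 1436 in PIC + TBHQ against PIC, 985 and 4373 in PIC against LPS, 890 and 2582 in PIC + TBHQ against LPS + TBHQ and 235 and 74 in the interaction. Values that turned and were called under TMM or under the total count were *Hspa5* (−0.0530) and *Pdia6* (−0.0295) in PIC + TBHQ against control, *Calr* (−0.0814), *Canx* (−0.0465), *Edem1* (−0.1153), *Hspa5* (−0.1185) and *Pdia6* (−0.0213) in PIC against LPS, and *Hspa5* (−0.0811) in PIC + TBHQ against LPS + TBHQ.

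In PIC + TBHQ against LPS + TBHQ, with 2 of the 10 genes higher and 0 lower in edgeR, no filter on low counts gave 1 higher and 1 lower, DESeq2 1 lower, a mean of at least 50 counts 2 lower and a fit on the conditions compared alone 3 lower. All genes higher and lower were 1335 and 1162 of 27701 with no filter, and 1497 and 1111 of 13691 by DESeq2. They were 1463 and 1287 of 10451 with a mean of at least 50 counts, and 1650 and 1354 of 12841 with the conditions compared alone. Leaving out 1 library gave 1 to 2 of the 10 genes higher and 0 to 2 lower there, and 1 to 3 higher in PIC against LPS, by the libraries named with each gene above. Beside these, all genes numbered 1278 to 1613 higher and 894 to 1312 lower there, and 1794 to 2023 higher in PIC against LPS. In the interaction, with 113 genes higher and 138 lower in edgeR, DESeq2 gave 282 lower (2 of them pathway genes), no filter 237 lower, limma on log2(FPKM + 1) 62 higher, and limma on log2(FPKM + 0.1) 56 higher and 91 lower. Leaving out 1 library gave 72 to 115 higher and 86 to 239 lower, and 0 to 1 pathway genes lower, the count higher being 72 without LPS replicate 3, 74 without PIC replicate 1 and 74 without LPS + TBHQ replicate 2, and the count lower 239 without LPS replicate 2, 91 without LPS + TBHQ replicate 1 and 86 without LPS + TBHQ replicate 2. The cause was not tested for any of these changes.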
